A study of Sus scrofa domesticus with 150 samples.

Results

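Chemokines of the CC family and their receptors were followed through the healing of full-thickness excisional wounds in porcine skin. The genes were chosen by name: the ligands CCL2, CCL3L1, CCL4, CCL5, CCL8 and CCL20 and the receptors CCR1 and CCR2. Of these 8 names, 6 matched a row of the gene count table, 1 row each, out of 30461 rows in all: CCL2 (ENSSSCG00025015704), CCL4 (ENSSSCG00025020949), CCL5 (ENSSSCG00025020677), CCL8 (ENSSSCG00025015859), CCL20 (ENSSSCG00025021558) and CCR1 (ENSSSCG00025051702). CCL20 was named from the protein match in its description, the others from the name column. CCL3L1 and CCR2 had no row under these names and were not analysed here.

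Chemokines are small secreted proteins that draw leukocytes along a gradient, and they act through receptors that span the membrane of the target cell. CC ligands have adjacent cysteines near the amino terminus, most of them bind more than one receptor, and most receptors bind more than one ligand. In wounded skin they recruit monocytes, macrophages, T cells and dendritic cells, and are made by those cells as well as by keratinocytes, fibroblasts and endothelium. CCL2 and CCL8 are monocyte chemoattractants that share the receptor CCR2. CCL5 binds CCR1, among others, and CCL20 is the ligand of CCR6. CCR1 is carried by monocytes, macrophages and, in several species, neutrophils.

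The animals were 6 female domestic pigs of a Yorkshire mix, numbered 1323 to 1328, whose age is not given in the sources used here. Each carried 12 circular wounds on the back that were covered with dressings and given no other treatment, apart from an antibiotic ointment put on biopsy sites. Day 0 samples (n = 6, 1 per animal) were the whole excised skin, and on 14 later days a biopsy of the wound edge and one of the wound center were taken from the same wound, which was then retired. Animals 1323 to 1325 were sampled on days 1, 3, 5, 7, 11, 15 and 21 and animals 1326 to 1328 on days 2, 4, 6, 9, 13, 16 and 19, with 2 wounds per animal up to day 13 (6 samples per location) and 1 wound per animal from day 15 (3 samples per location). A day to day step therefore compares different animals, and the day and the animal set cannot be told apart; pairs of neighbouring days, called windows here, hold all 6 animals. All wounds are wounds of untreated, otherwise intact pigs, and 2 wounds of 1 animal are not separate animals.

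On the count scale a level is given as CPM, a gene's count scaled to the same total in every sample, or as log2(1 + CPM). Depth was 13133379 to 24895572 counts per sample, and 3 counts, taken as the floor, came to 0.121 to 0.228 CPM, which covers counting error only. By their correlation with the other samples of their state, 8 libraries stood apart. The labelled location was checked with 9 of 10 keratinocyte markers: their summed CPM was higher at the edge in 70 of 72 wounds. The exceptions were the wounds of animals 1324 and 1325 on day 21, with 43400 and 47300 CPM in the center and 31700 and 33000 at the edge. On day 3, the library labelled edge from animal 1325, wound G, reached 127 CPM against 16500 or more in every other edge library, and the library labelled center from animal 1324, wound G, reached 35900. Both are among the 8 libraries. They were kept in the fits and in the counts of wounds, except where a value without them is given. Without the 8 libraries the numbers of calls over 14 days (6), against day 0 (77), between stages (21) and by day (25) were those given below. The calls by day were not all the same: CCR1 on day 2 was lost and CCL2 on day 6 was gained. In the test of a change in the edge and center difference, CCR1 passed as well.

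CCL2, CCL8, CCL5 and CCL4 lie on 1 contig, LUXX01026924.1, where 12 rows of the CC family stand within 1.32 Mb. On this contig CCL2 spans 520971 to 522891 (plus strand), CCL8 576675 to 578683 (plus), CCL5 1661427 to 1671757 (minus) and CCL4 1762648 to 1841063 (plus). CCL20 stands alone on LUXX01045031.1 (520110 to 523621, minus), and CCR1 on LUXX01073055.1 (1467968 to 1474708, minus) on a contig that also holds CCR9, CCR3 and CCRL2. All 6 rows are annotated as protein coding, and the genome build is not given in the sources used here. The CCL4 row is 78416 bases long and overlaps 3 rows whose protein match is CCL3, a closely related ligand, of which 1 on the opposite strand held 93258 counts over all samples. Whether the counting used strand is not given, so the split of reads between CCL4 and CCL3 is uncertain.

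In intact skin the genes were low. Over the 6 day 0 samples CCL2 ranged from 4.25 to 9.49 CPM with a median of 6.89, and CCL5 from 2.82 to 8.17 with a median of 5.22. CCR1 ranged from 1.37 to 2.58 with a median of 1.82. CCL8 ranged from 0.419 to 1.16 CPM with a median of 0.927, CCL4 from 0.240 to 1.60 with a median of 0.677, and CCL20 from 0.0571 to 0.368 with a median of 0.124. CCL20 thus rested on 1 to 7 counts per day 0 library, and CCL4 on 4 to 28. After wounding, all 144 wound samples lay above the highest day 0 sample for CCL2 and CCR1, 142 for CCL8, 138 for CCL5, 135 for CCL4 and 128 for CCL20. The share of all genes that separate in this way is not given here. The same holds for the groups said below not to overlap, which only describe the samples. In bulk tissue a rise from more cells of a type and a rise from more RNA per cell cannot be told apart, and this holds for every value below.

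Per gene length, CCL2 was the most abundant of the 6 genes in 28 of 29 states of day and location. On the deposited FPKM scale (fragments scaled to gene length and depth), its mean level went from 9.34 ± 2.23 (SD, n = 6) on day 0 to 779 ± 486 in the center and 223 at the edge on day 1. The exception was the center on day 9, where CCL5 averaged 214 and CCL2 138. CCL20 was the least abundant in 22 states, and its highest mean FPKM was 16.6, in the day 5 center. On day 1 in the center CCR1 followed CCL2 with 121, then CCL5 with 90.1, CCL4 with 28.9, CCL8 with 27.6 and CCL20 with 3.41. The distance between CCL2 and CCL20 in mean FPKM was therefore more than 2 orders of magnitude on that day.

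**Figure D1:**
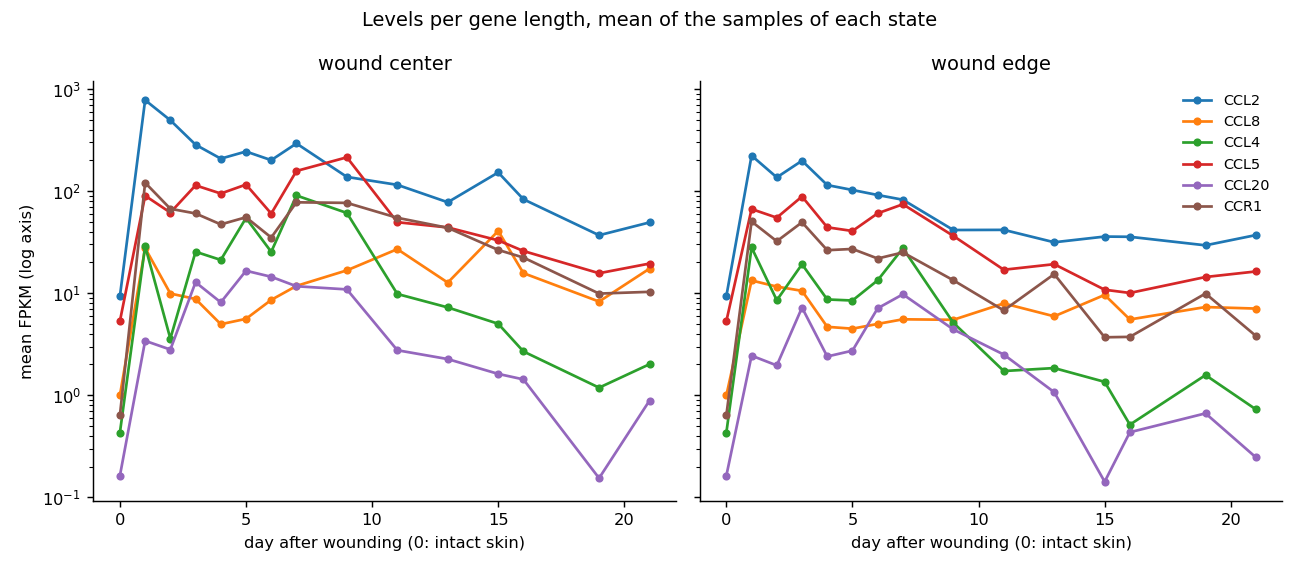
Mean FPKM of the 6 genes (log axis) against the day after wounding, for the wound center (left) and the wound edge (right), with intact skin at day 0 in both; each point is the mean of 6 samples, or of 3 from day 15. CCL2 is on top in every state but the day 9 center, where CCL5 is higher, and CCL20 or CCL8 is lowest in 28 of 29 states.

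The genes did not peak together. CCL2 and CCR1 were highest in the center on day 1, CCL20 in the center on day 5, CCL4 in the center on day 7, CCL5 in the center on day 9 and CCL8 in the center on day 15. These states came out highest for 6 of 6 genes on 4 scales, log2(1 + CPM), a smaller pseudocount, TMM-normalized CPM and FPKM. The order is loose all the same: of 28 neighbouring pairs of states ranked by mean log2(1 + CPM), the difference exceeded the larger SD of the pair in 1 pair each for CCL2, CCL5, CCL8 and CCR1, always the last step down to day 0 skin, and in 0 for CCL4 and CCL20. The lowest state was day 0 skin for all but CCL20, whose day 19 center and day 15 edge lay below day 0 by less than their spread.

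Among the ligands, CCL2, the main monocyte chemoattractant, showed an early maximum and a long decline. In the day 1 center its lowest, median and highest samples held 163, 633 and 1348 CPM. By day 7 these were 76.1, 147 and 656 CPM, by day 13 26.7, 44.3 and 126 CPM, and in the 3 wounds of day 19 the center held 24.2, 24.4 and 25.8 CPM. None of these groups reached down to the day 0 range. At the edge the day 1 samples ran from 60.7 to 414 CPM with a median of 145, and those of day 13 from 11.0 to 38.7 with a median of 15.3. The lowest CCL2 sample of the day 1 center (animal 1325, wound A) also had 22000 CPM of keratinocyte markers, the highest of that state.

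CCL8 is the other monocyte chemoattractant, and its course in the center is given for each set of animals. The sets were sampled on different days, so set and day cannot be told apart, and a difference between the sets was not tested. In animals 1323 to 1325 the day 1 center samples held 7.02 to 79.0 CPM with a median of 19.4, those of day 5 3.94 to 6.72 with a median of 4.93, and those of day 11 5.43 to 76.3 with a median of 14.1. On day 15 the centers of these animals held 49.6, 18.8 and 31.4 CPM. All 3 lay above the day 5 samples. In animals 1326 to 1328 the center medians of days 2, 4 and 6 were 4.74, 5.50 and 3.79 CPM, and those of days 9, 13 and 16 were 13.0, 9.65 and 9.24 CPM. At the edge the state medians stayed between 3.68 and 6.66 CPM on all 14 days, and on day 15 animals 1323 to 1325 held 14.4, 3.85 and 5.43 CPM.

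CCL4, a ligand made by activated macrophages and lymphocytes, was the most variable member on the scale of log2(1 + CPM). On this scale the pseudocount narrows the spread of genes with low counts, such as CCL20. The median SD of log2(1 + CPM) within wound states of 6 samples was 1.36 for CCL4, against 0.71 for CCR1, 0.80 for CCL8, 0.82 for CCL2, 1.07 for CCL5 and 1.13 for CCL20. In the center its lowest, median and highest samples were 20.0, 37.0 and 162 CPM on day 1, 1.93, 7.30 and 14.9 on day 2, and 11.5, 98.3 and 403 on day 7. On day 13 they were 3.00, 10.3 and 26.6 CPM. The day 1 and day 2 centers did not overlap, and these days hold different animals.

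CCL5 recruits T cells and monocytes. Its center medians ranged from 34.2 CPM (day 6) to 151 CPM (day 9) between days 1 and 9, with no steady direction, with single samples of 545 CPM on day 9 and 409 CPM on day 7. On day 11 the center ran from 25.2 to 70.4 CPM. At the edge the medians of days 1, 7, 9 and 11 were 76.4, 44.5, 21.4 and 14.7 CPM. Every sample of days 11 and 13 lay above the highest day 0 sample, except 1 edge sample of day 11 (6.60 CPM) and 1 of day 13 (7.12 CPM).

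CCL20, the ligand of CCR6, stayed low throughout. Its mean was highest in the day 5 center, with 4.80, 11.4 and 38.6 CPM as lowest, median and highest sample, while the day 5 edge held 0.511, 2.11 and 7.07 CPM. The highest edge value, 35.7 CPM, came on day 7. From day 15 on, 7 of 12 center samples and 5 of 12 edge samples lay above the highest day 0 sample, and the edges of day 15 held 0, 0 and 0.423 CPM.

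CCR1 was the only receptor among the 6 rows. Its center samples held 136, 391 and 798 CPM on day 1, 116, 223 and 379 on day 7, 62.6, 128 and 158 on day 13, and 17.8, 20.6 and 45.8 on day 21. At the edge it fell from a median of 155 CPM on day 1 to 52.2 on day 7 and 15.4 on day 11. Every edge sample of day 11 (10.6 to 35.7 CPM) lay below every center sample of that day (85.1 to 218).

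**Figure D2:**
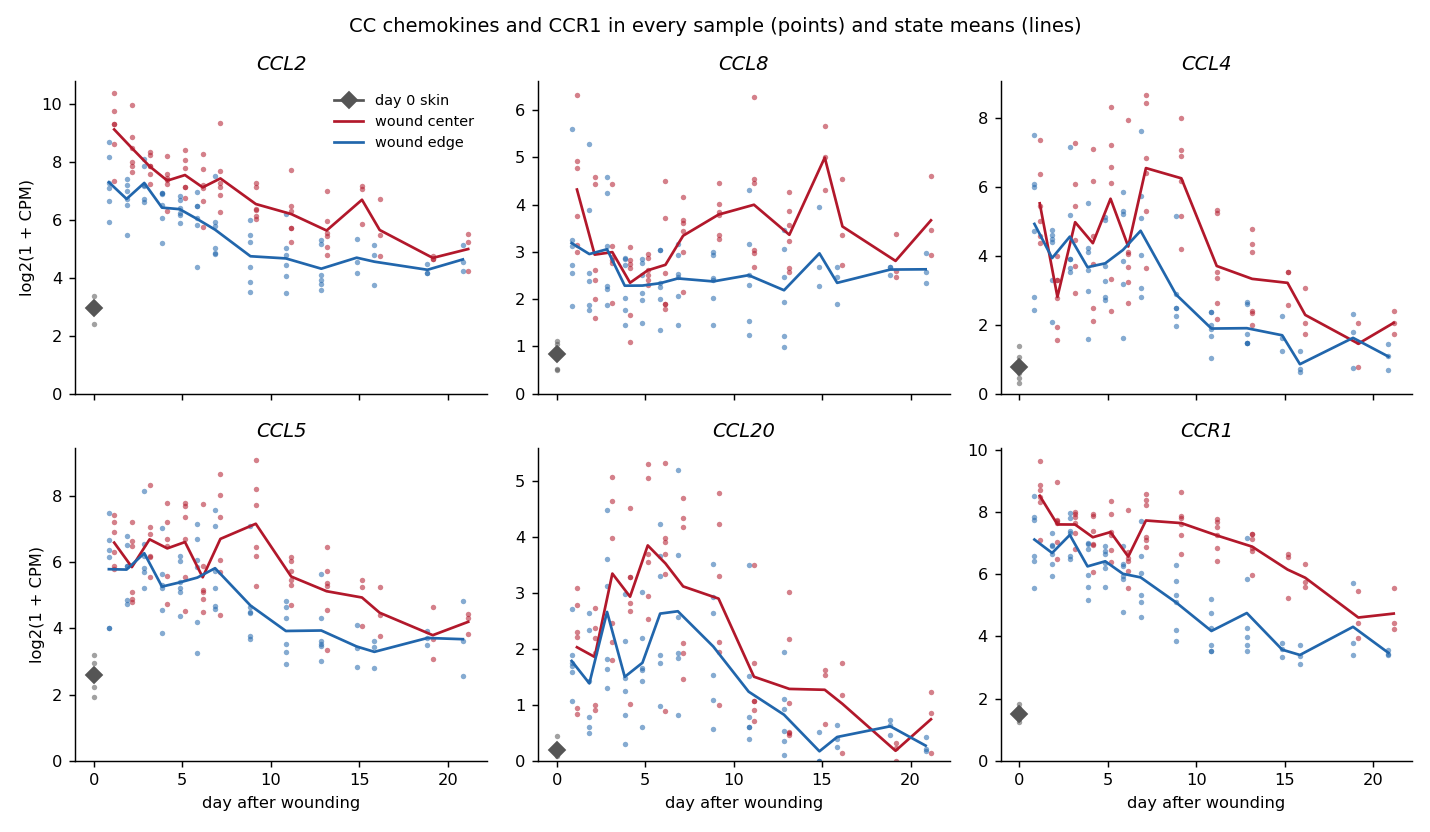
log2(1 + CPM) of each gene against the day after wounding, one panel per gene with its own vertical axis from 0; points are samples (gray day 0 skin, red wound center, blue wound edge) and lines join the means of the states. All points of CCL2 and CCR1 after day 0 lie above the day 0 skin, the CCL8 center mean is highest on day 15, a day of animals 1323 to 1325, and the points of CCL4 are the most spread.

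The change from intact skin was tested for each window and location against the 6 day 0 samples, in 1 fit of all 150 samples with edgeR's quasi-likelihood test (Benjamini-Hochberg over 17916 genes, threshold 0.05). Of 84 pairs of gene and state, 77 were higher than day 0 and 0 lower. All 6 genes rose in the center on days 1 and 2, where 33.3% of all genes tested rose, on days 3 and 4 (33.3%), 5 and 6 (33.5%), 7 and 9 (32.6%), 11 and 13 (30.4%) and 15 and 16 (27.3%), and 4 of 6 on days 19 and 21 (22.0%). At the edge all 6 rose on days 1 and 2 (22.6% of all genes), 3 and 4 (26.7%), 5 and 6 (28.1%), 7 and 9 (25.8%) and 11 and 13 (23.8%), then 3 of 6 on days 15 and 16 (13.3%) and 4 of 6 on days 19 and 21 (18.2%). The 14 comparisons share the day 0 samples. CCL2, CCL8 and CCR1 rose in every window and location, CCL5 in 13 of 14, and CCL4 and CCL20 in 11 of 14.

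The largest fold for CCR1 was on days 1 and 2 in the center, a log2 fold change of 7.20 ± 0.58 (SE), or 147-fold, with an adjusted p of 1.2e-21. CCL2 was up by 6.11 ± 0.53 there (69.3-fold, adjusted p = 1.2e-19) and still by 2.22 ± 0.46 on days 19 and 21 (adjusted p = 3.05e-05). CCL4 reached 7.48 ± 1.07 on days 7 and 9 in the center (adjusted p = 8.05e-10), and CCL5 5.16 ± 0.70 in the same state (adjusted p = 9.66e-11). CCL20 reached 6.57 ± 1.04 on days 5 and 6 in the center (adjusted p = 1.57e-08), from the few counts of day 0 given above. CCL8 reached 4.70 ± 0.70 on days 15 and 16 in the center (adjusted p = 5.43e-09).

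The pairs that missed the threshold were late. In the center of days 19 and 21 CCL4 stood at a log2 fold change of 1.86 ± 0.96 (adjusted p = 0.106) and CCL20 at 1.18 ± 1.15 (adjusted p = 0.419). At the edge of days 15 and 16 CCL5 stood at 0.99 ± 0.63 (adjusted p = 0.267), CCL4 at 0.99 ± 1.00 (adjusted p = 0.526) and CCL20 at 0.53 ± 1.2 (adjusted p = 0.804). On days 19 and 21 at the edge CCL4 stood at 1.34 ± 0.98 (adjusted p = 0.303) and CCL20 at 1.30 ± 1.10 (adjusted p = 0.382). These intervals are wide, and a return to the level of intact skin is not shown by them. The calls of CCL4 at the edge on days 11 and 13 (2.10 ± 0.88, adjusted p = 0.0436) and of CCL5 at the edge on days 19 and 21 (1.55 ± 0.63, adjusted p = 0.0452) held in 4 and 6 of 14 alternatives. That of CCL5 in the center on days 19 and 21 (1.74 ± 0.63, adjusted p = 0.0181) was lost without animal 1323 and without animal 1328.

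**Figure D3:**
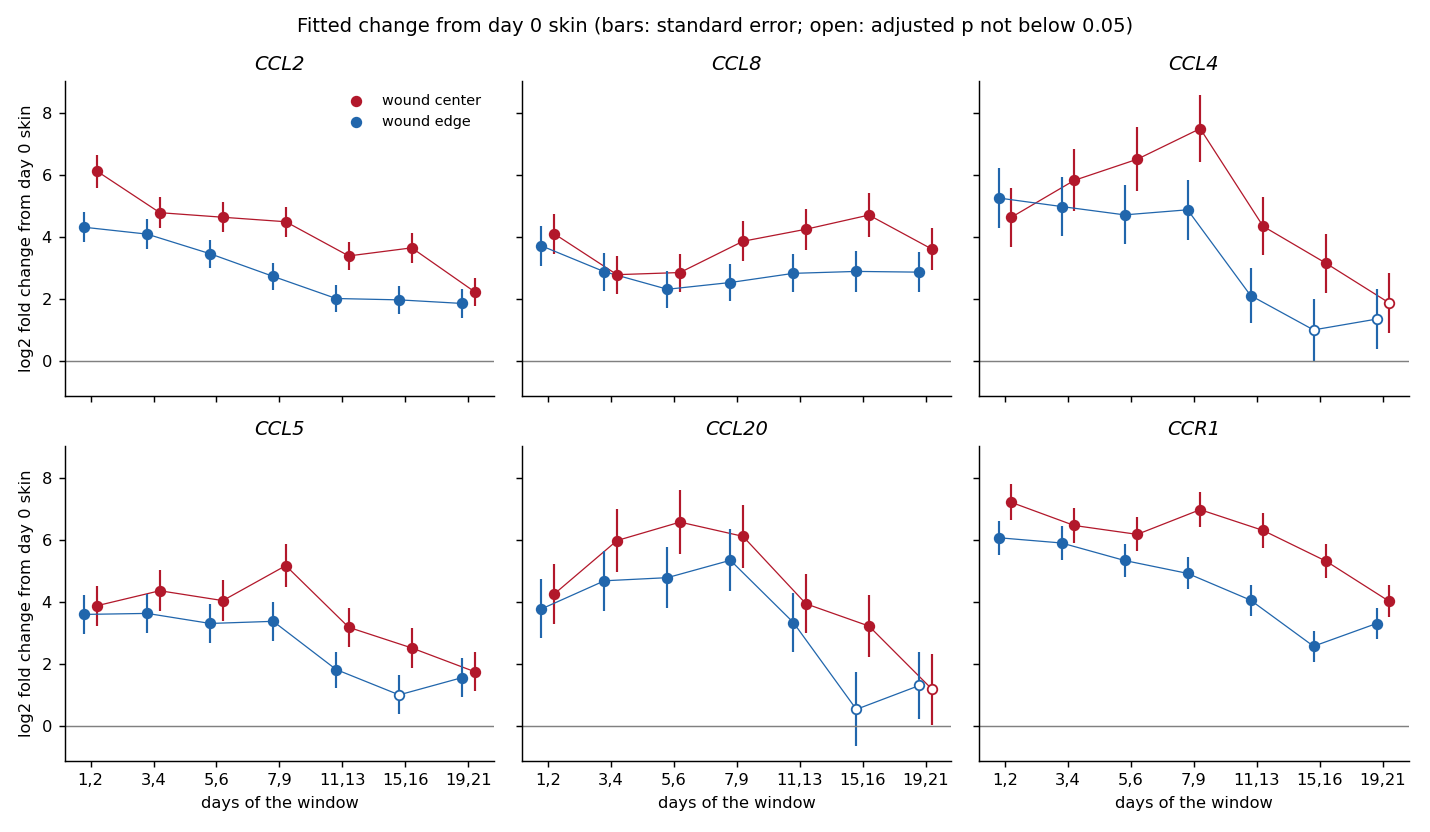
Fitted log2 fold change of each gene from day 0 skin (vertical axis) in the 7 windows of neighbouring days (horizontal axis), red for the wound center and blue for the edge; bars are 1 standard error and open circles did not pass an adjusted p of 0.05. CCR1 on days 1 and 2 in the center is 7.20 above day 0, CCL4 has its highest point on days 7 and 9, and 7 open circles lie on days 15 to 21.

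Change during healing was tested between windows that each hold all 6 animals, within a location. Of 36 pairs of gene and step, 18 were lower and 3 higher in the later window. In the center, from days 1 and 2 to days 5 and 6, CCL2, CCR1 and CCL8 fell (24.3% of all genes tested fell) and CCL4 and CCL20 rose (18.2% rose). CCL2 fell by 1.49 ± 0.31 on the log2 scale (adjusted p = 4.15e-05) and CCL8 by 1.25 ± 0.42 (adjusted p = 0.0108). CCL20 rose by 2.32 ± 0.58 (adjusted p = 0.000585) and CCL4 by 1.87 ± 0.59 (adjusted p = 0.00629), while CCL5 stood at 0.17 ± 0.42 (adjusted p = 0.79). The rise of CCL4 missed the threshold without animal 1323 and without animal 1327, and the falls of CCL8 and CCR1 without animal 1324, with the same sign each time. CCL4 rose by 2.85 ± 0.83 in animals 1326 to 1328 alone (adjusted p = 0.00803). In animals 1323 to 1325 alone its change was 0.90 ± 0.83 (adjusted p = 0.423). CCL8 fell by 2.31 ± 0.63 in animals 1323 to 1325 alone (adjusted p = 0.00324), and in animals 1326 to 1328 alone the change was -0.18 ± 0.56 (adjusted p = 0.857).

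From days 5 and 6 to days 11 and 13 in the center, CCL20 fell by 2.63 ± 0.59 (adjusted p = 0.000135), CCL4 by 2.16 ± 0.59 (adjusted p = 0.00175) and CCL2 by 1.25 ± 0.31 (adjusted p = 0.000609), in a step where 18.9% of all genes fell. CCL8 rose by 1.40 ± 0.42 (adjusted p = 0.00457) where 22.6% of all genes rose; without animal 1324 this call was lost, and it was 2.27 ± 0.63 in animals 1323 to 1325 alone (adjusted p = 0.00402) against 0.53 ± 0.56 in animals 1326 to 1328 alone (adjusted p = 0.554). CCR1 stood at 0.13 ± 0.31 (adjusted p = 0.785). From days 11 and 13 to days 19 and 21, 5 of 6 genes fell, all but CCL8, against 15.9% of all genes. CCR1 fell by 2.28 ± 0.43 (adjusted p = 1.38e-05) and kept its call in all 14 alternatives. The other 4 lay nearer the threshold, and kept their sign in all 14 alternatives. The call of CCL5 (a fall by 1.43 ± 0.56, adjusted p = 0.0405, with log2 fold changes of -1.67 to -1.14 over the alternatives) was lost without each of animals 1323 to 1327, that of CCL2 (-1.39 to -0.89) without animals 1324, 1325 or 1327, that of CCL20 (-3.82 to -1.68) without 1324 or 1327, and that of CCL4 (-2.78 to -1.86) without 1327.

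At the edge, from days 1 and 2 to days 5 and 6, 2 of 6 genes fell, CCL8 (by 1.40 ± 0.42, adjusted p = 0.00843) and CCL2 (adjusted p = 0.0312), where 10.7% of all genes fell. Both calls were lost without animal 1323 and without animal 1328, and that of CCL2 also without 1324 and without 1327. From days 5 and 6 to days 11 and 13, 5 of 6 fell, all but CCL8, where 15.9% of all genes fell. There CCL4 fell by 2.60 ± 0.62 (adjusted p = 0.00046), CCL5 by 1.49 ± 0.44 (adjusted p = 0.00485) and CCR1 by 1.28 ± 0.32 (adjusted p = 0.000875). CCR1 changed by -2.04 ± 0.43 in animals 1323 to 1325 alone (adjusted p = 0.000297). In animals 1326 to 1328 alone it changed by -0.53 ± 0.47 (adjusted p = 0.516). In the center CCR1 did not pass the test in that step, and the difference between the locations in this step was not tested. The fall of CCL20 (by 1.45 ± 0.58, adjusted p = 0.0474) passed in 6 of 14 alternatives and was lost without each animal but 1324. CCL20 changed by -0.15 ± 0.81 in animals 1323 to 1325 alone (adjusted p = 0.922). In animals 1326 to 1328 alone it changed by -2.74 ± 0.85 (adjusted p = 0.0237). From days 11 and 13 to days 19 and 21, 0 of 6 genes passed edgeR's test in either direction at the edge (1 of 6, CCL20, had an unadjusted p below 0.05, and DESeq2 called 0), and 4.82% of all genes passed it.

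The wound edge and the wound center were put against each other to see where in the wound the genes were expressed. Over all 14 days, with each state weighted equally, all 6 genes were lower at the edge, in a comparison where 33.8% of all genes tested were higher in the center. CCR1 had the largest difference, a log2 fold change of -1.47 ± 0.14 (adjusted p = 4.62e-18), and CCL4 had -1.36 ± 0.26. CCL2 had -1.27 ± 0.14 (adjusted p = 2.71e-15), CCL20 -1.07, CCL5 -0.94 and CCL8 -0.88. The center was higher in 6 of 6 animals for every gene, with differences of log2(1 + CPM) averaged per animal from -1.71 to -1.30 for CCR1 and from -1.65 to -1.05 for CCL2. By wound, the center was higher in 70 of 72 wounds for CCL2, 65 for CCR1, 56 for CCL4 and CCL5, 55 for CCL20 and 54 for CCL8. The calls held in each alternative run, except that of CCL20 in animals 1326 to 1328 alone (-0.77 ± 0.39, adjusted p = 0.0875).

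Day by day, in 14 separate fits, 25 of 80 pairs of gene and day were higher in the center and 0 higher at the edge. CCL20 did not pass the filter on low counts on days 15, 16, 19 and 21. Day 1 had 1 call of 6, CCL2, while 22.6% of all genes tested were higher in the center, and day 2 had 2 calls, CCL2 and CCR1 (17.7% of all genes). Days 3 and 4 had 0 calls (0.0% and 11.4%). The 5 calls of day 5 were all genes but CCL8 (16.8%), and day 6 had 0 (3.92%). The counts were 3 of 6 for day 7 (17.1%), 5 for day 9 (14.3%), 4 for day 11 (22.9%) and 2 for day 13 (11.8%). With 3 samples per location, day 15 had 2 calls of 5 (9.81%), day 16 had 1 (5.87%), and days 19 and 21 had 0 (0.0% and 0.0%). For the days with 0 calls by edgeR (3, 4, 6, 19 and 21, in this order), 0, 3, 1, 0 and 3 members had an unadjusted p below 0.05, and DESeq2 called 0, 2, 1, 0 and 1. Of all genes on day 3, 1667 of 14581 had an unadjusted p below 0.05 by edgeR, and DESeq2 called 1 of 23184. For the other days these shares of all genes are not given here, so the member counts are not read as particular to the members. On day 3, without the libraries that stand apart, 2630 of 14548 genes differed and 0 of the 6 members did. CCL2 then stood at -0.28 (adjusted p = 0.573) and CCL4 at 0.61 (adjusted p = 0.662).

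Within a wound, the deviations of the edge and the center from their state means went together (r = 0.59 for CCL2, 0.52 for CCL20, 0.44 for CCL4, 0.42 for CCL8, 0.38 for CCL5 and 0.27 for CCR1, over 72 wounds). With the wound as a replicate block the count rose from 25 to 39 pairs, all higher in the center, among them 4 of 6 genes on day 4 and 5 of 5 on day 15, while 3 of the 25 were lost, CCR1 on day 2 (adjusted p = 0.0950), CCL5 on day 5 (0.0580) and CCL8 on day 7 (0.0867). When the second wound in the order of animal and wound letter was left out on every day, the count fell to 16. Since 2 wounds share an animal up to day 13, the counts of each animal were also summed, and 20 pairs passed, with 9 of the 25 lost. The share of all genes called in each of these runs is not given here. The rise and the falls are therefore not read as a result about the members. In every alternative run 8 of the 25 pairs were called: CCL2 on days 2 and 5, CCR1 on days 9 and 11, CCL4 and CCL5 on day 11, CCL8 on day 9 and CCL20 on day 5.

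CCL2 differed between the locations on 8 of 14 days and CCR1 on 7 of 14. On day 2 the CCL2 center samples (202 to 1005 CPM) lay above every edge sample (43.6 to 170), a log2 fold change of -1.85 ± 0.41 (adjusted p = 0.0033). The CCR1 difference was largest on day 11, at -3.04 ± 0.34 (adjusted p = 6e-05). On day 16 the center of animals 1326, 1327 and 1328 held 47.0, 79.3 and 53.1 CPM of CCR1 and the edge 9.37, 12.2 and 7.69, a difference of -2.58 ± 0.31 (adjusted p = 0.0175). This call was lost without the second or the third of the wounds, and the 2 calls of day 15, CCL2 and CCR1, were lost without any 1 of its 3 wounds.

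CCL4 differed on days 5, 9, 11 and 13, CCL5 on days 5, 9 and 11, CCL8 on days 7 and 9, and CCL20 on day 5, and the call of CCL8 on day 7 was lost in 8 alternatives. The largest CCL4 difference came on day 9, where the center held 17.3 to 258 CPM with a median of 94.6 and the edge 2.94 to 34.9 with a median of 4.62. This was a log2 fold change of -3.54 ± 0.77 (adjusted p = 0.00368). CCL5 differed by -2.53 ± 0.75 on that day (adjusted p = 0.0217), CCL8 by -1.58 ± 0.33 (adjusted p = 0.00309), and CCL20 on day 5 by -2.59 ± 0.62 (adjusted p = 0.00538). With the counts of each animal summed, the day 9 calls of CCL5 (adjusted p = 0.109), CCL4 (0.0632) and CCL2 (0.0701) were lost, at log2 fold changes of -2.52, -3.51 and -1.67. On day 2 CCL4 leaned the other way: the edge samples held 3.24 to 25.7 CPM with a median of 20.8, the center samples 1.93 to 14.9 with a median of 7.30, and the edge was higher in 5 of 6 wounds. Its log2 fold change of 1.26 ± 0.53 did not pass edgeR's test (adjusted p = 0.0812). It passed in 2 of 12 alternatives, with DESeq2 and with edgeR without the first wound in the order of animal and wound letter.

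**Figure D4:**
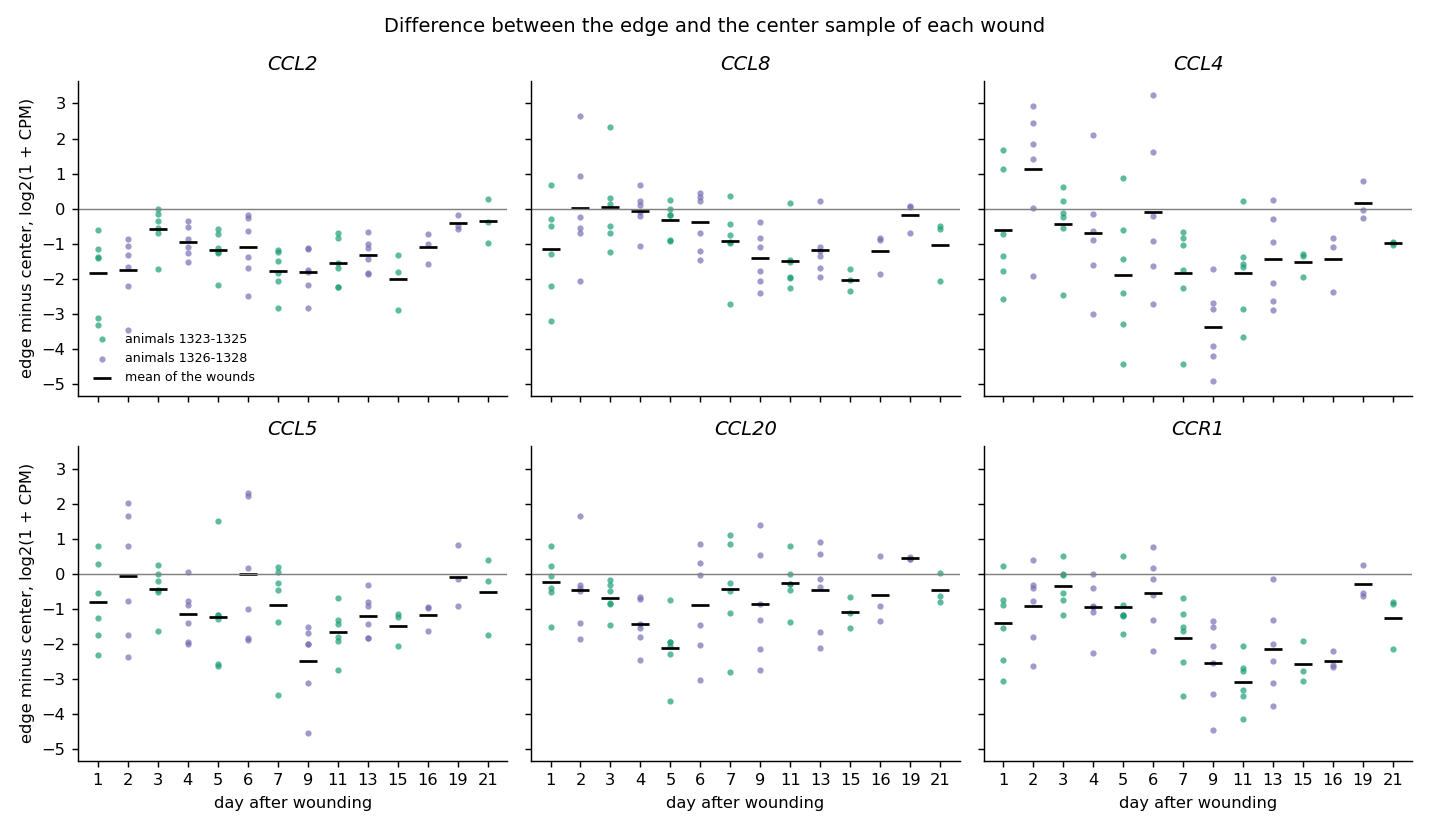
Difference of log2(1 + CPM) between the edge and the center sample of each wound (vertical axis) by day after wounding, one panel per gene; green points are wounds of animals 1323-1325, purple points those of animals 1326-1328, and black bars the mean of the wounds of a day. Most points lie below 0 (70 of 72 for CCL2), the CCR1 differences are largest on days 9 to 16, and CCL4 on day 2 lies above 0 in 5 of 6 wounds.

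Whether the difference between edge and center itself changed was tested as that of days 11 and 13 minus that of days 1 and 2. Of the 6 genes, 1 passed, CCL4, with a change of -2.85 ± 0.84 (adjusted p = 0.00543), where 13.5% of all genes tested changed in that direction. CCR1 missed the threshold with -1.11 ± 0.45 (adjusted p = 0.0501) and passed in 8 of 14 alternatives, at -1.79 in animals 1323 to 1325 alone (adjusted p = 0.0221) and not in animals 1326 to 1328 alone (-0.42, adjusted p = 0.749). CCL5 stood at -1.08 ± 0.60 (adjusted p = 0.177), CCL8 at -1.03 ± 0.59 (adjusted p = 0.185), CCL2 at 0.44 ± 0.44 (adjusted p = 0.492) and CCL20 at -0.13 ± 0.81 (adjusted p = 0.944). Within each set of animals the CCL4 change was -2.50 ± 1.21 (animals 1323 to 1325, adjusted p = 0.141) and -3.21 ± 1.14 (animals 1326 to 1328, adjusted p = 0.0543). Without animal 1323 it was -2.35 ± 0.91 (adjusted p = 0.0556), so that 0 of 6 genes passed.

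The wound samples also differed in their cell type markers, and the part these play in the values above was not tested. Macrophage markers (10 of 10 found, none at or under 3 counts in all libraries) summed to 255 to 499 CPM in day 0 skin, 838 to 3710 in the center and 335 to 2790 at the edge, and their state means were higher in the center on 14 of 14 days. Neutrophil markers (9 of 10) summed to 32.6 to 66.9 CPM on day 0, 187 to 11200 in the center and 96.1 to 13800 at the edge, and were higher at the edge on 10 of 14 days. T and NK cell markers (10 of 10, CD3G at 3 counts or fewer throughout) summed to 128 to 154, 149 to 709 and 111 to 358 CPM, and were higher in the center on 13 of 14 days. Keratinocyte markers summed to 32400 to 77700 CPM on day 0, 38.6 to 47300 in the center and 127 to 101000 at the edge. B cell markers (6 of 6) summed to 2.40 to 5.17, 5.68 to 94.2 and 2.29 to 32.9 CPM and endothelial markers (6 of 6) to 305 to 497, 682 to 2290 and 198 to 1600 CPM, both higher in the center on 14 of 14 days. Fibroblast markers (8 of 8) summed to 39100 to 118000, 12700 to 182000 and 5920 to 186000 CPM, and skeletal muscle markers (9 of 9, TTN at 3 counts or fewer throughout) to 11.8 to 22.4, 6.74 to 83700 and 5.35 to 42400 CPM.

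Across the 29 state means the mean level of the macrophage list correlated with CCR1 (r = 0.91), CCL5 (0.84), CCL2 (0.79), CCL4 (0.74), CCL20 (0.68) and CCL8 (0.58). For CCL8 the T and NK cell list gave the higher value (0.79). With the neutrophil list the state means gave 0.29 (CCL8) to 0.70 (CCR1). The B cell list gave 0.56 (CCL20) to 0.78 (CCL2), and the endothelial list 0.47 (CCL8) to 0.66 (CCR1). The keratinocyte list gave -0.68 (CCR1) to -0.40 (CCL8), and the fibroblast list -0.35 (CCL2) to 0.17 (CCL8). The skeletal muscle list gave 0.06 (CCL8) to 0.49 (CCL2). Within states, over 144 wound samples, the macrophage list gave 0.64 for CCR1, 0.41 for CCL2, 0.32 for CCL5, 0.22 for CCL4 and CCL8 and 0.05 for CCL20. There the neutrophil list gave 0.60 for CCL5 and CCR1, 0.57 for CCL4, 0.54 for CCL20, 0.44 for CCL2 and 0.30 for CCL8. The T and NK cell list gave 0.66 for CCL2, 0.64 for CCL5, 0.61 for CCL8, 0.58 for CCR1, 0.52 for CCL4 and 0.48 for CCL20. Only for CCR1 was the macrophage value the highest of the 3. These points share libraries and the healing time, and are given as a description.

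**Figure D5:**
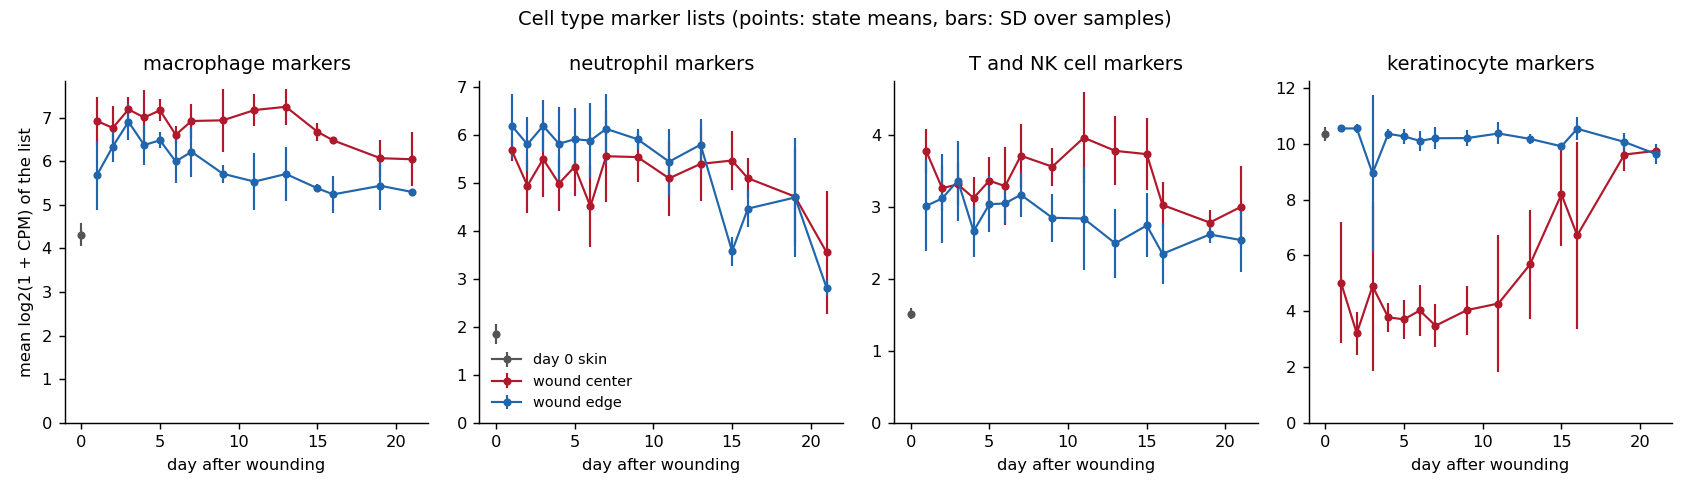
Mean log2(1 + CPM) over the genes of 4 marker lists (vertical axis) against the day after wounding, red for the wound center, blue for the edge and gray for day 0 skin; points are state means and bars the SD over samples. Macrophage markers lie higher in the center on 14 of 14 days and neutrophil markers higher at the edge on 10, and the wide keratinocyte bars on day 3 hold the libraries of animals 1324 and 1325, wound G.

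Among the state means CCL8 was the least like the others. Over the 29 state means, log2(1 + CPM) of CCL4 and CCL5 correlated at r = 0.96, CCL5 and CCR1 at 0.95 and CCL2 and CCR1 at 0.92, and the lowest pair without CCL8 was CCL2 and CCL20 at 0.72. CCL8 correlated at 0.11 with CCL20, 0.36 with CCL4, 0.40 with CCL5, 0.49 with CCL2 and 0.55 with CCR1. Deviations from the state means over 144 wound samples gave 0.82 for CCL4 and CCL5 and 0.28 for CCL8 and CCL20. There too each of the other genes had its lowest value with CCL8, but the gap was smaller for some. CCL8 had 0.56 with CCL2, as CCL20 did, 0.48 with CCL4, 0.45 with CCL5 and 0.35 with CCR1. The pair of CCL20 and CCR1 had 0.44. These are correlations across states or samples that share animals, with no test.

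The genes of the whole table whose 29 state means were most like a member's were chosen by Pearson's r. For CCR1 these were VAV1 (0.987), SLC15A3 (0.983) and FCER1G (0.982), the last an adaptor of Fc receptors. For CCL2 they were TBXAS1 (0.958) and CD300LB (0.957), for CCL5 CD53 (0.977), OLR1 (0.972) and PIK3AP1 (0.967). For CCL4 they were CCL3 (0.981), which shares its stretch of the contig, SLAMF7 (0.970) and ACOD1 (0.969). For CCL20 they were TMEM187 (0.924), OSM (0.914), a cytokine of the interleukin-6 family, and TNFAIP6 (0.910). CCL8 had the lowest values, with GZMK (0.869), a granzyme of T and NK cells, ARL11 (0.854) and CD6 (0.843), a T cell surface protein.

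Of the other CC ligands, 15 of 19 names had a row (17 rows), 13 of which passed the filter; all 12 other receptors and atypical receptors were found and passed. Over 14 days, 5 of the 13 ligands were higher in the center and 4 higher at the edge, with a median log2 fold change of 0.01. Of the 12 receptors, 6 were higher in the center and 0 at the edge, with a median of -0.50. Of all 17916 genes tested, 6062 (33.8%) were higher in the center and 5814 at the edge, and the shares of the ligands were near these. The median was -1.17 over the 6 members and -0.01 over all genes. Against day 0, 8 of 12 receptors rose and 0 or 1 fell in the center in each window through days 11 and 13, where 30.4% to 33.5% of all genes rose. Of the 13 ligands 5 or 6 rose, a share near that of all genes, and 2 to 5 fell. Of all 17916 genes, 5816 to 6384 fell in these windows. On days 5 and 6 the ligands that rose and fell were 5 and 5, with a median log2 fold change of -0.84. At the edge 7 or 8 receptors and 5 or 6 ligands rose in those windows, where 22.6% to 28.1% of all genes rose. There 0 or 1 receptor and 1 to 3 ligands fell, and 3486 to 4885 of all 17916 genes.

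The ligands and receptors furthest toward the center were CCL23 (log2 fold change -1.78 ± 0.18), a CCR1 ligand, CCL3 (-1.63 ± 0.27), CCR7 (-1.21 ± 0.15), the receptor that guides dendritic and T cells to lymph nodes, and CCRL2 (-1.09 ± 0.12). CCL23 went from a mean log2(1 + CPM) of 0.88 ± 0.33 (SD, n = 6) on day 0 to 6.87 ± 1.64 in the day 7 center, the state where CCL3 (6.81 ± 1.66) and CCL4 were also highest. Furthest toward the edge was CCL28 (6.05 ± 0.32, adjusted p = 7.01e-36), a chemokine of epithelia, with a mean of 6.34 ± 0.62 on day 0 and 0.06 ± 0.12 in the day 5 center. CCL1 (1.09 ± 0.29), CCL26 (0.59 ± 0.21) and CCL21 (0.44 ± 0.13), the lymphatic ligand of CCR7, followed. CCL1 averaged 0.393 CPM, near the floor, and passed the filter of the separate fits on 2 of 14 days. The center held both the highest state mean of CCL21, on day 19 (6.05 ± 0.29), and its lowest, on day 5 (3.54 ± 1.11). The CCL21 row spans 159500 bases and overlaps rows named RASEF and U6. By mean CPM over all samples the most abundant of the others were ACKR4 (164 CPM), a scavenging receptor for CCL19 and CCL21, CCL19 (63.8), CCL23 (50.5) and CCR3 (44.4). ACKR4 was highest in the day 1 center with 9.22 ± 0.26 and did not differ between the locations over 14 days by the test (-0.20 ± 0.14, adjusted p = 0.222). The row named CCR3 spans 124944 bases and its protein match is a CCR2 of another species, so which of these neighbouring receptors it counts is uncertain.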

How the data were processed

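The authors deposited, for each gene and sample, read counts without normalization and FPKM values, made by a sequencing provider that removed adapter, poly-N and low-quality reads from poly-A selected paired reads and aligned the rest. Aligner, counter and build are not given in the sources used here. Day, location, animal and wound were taken from the labels. CPM was the count over the sample's total, and log2(1 + CPM) used a pseudocount of 1; deposited FPKM served only to compare genes.

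Tests were edgeR's quasi-likelihood tests (version 4.0.16, under R 4.3.3) after TMM scaling and a low-count filter (filterByExpr, minimum total 15, minimum count 10), with Benjamini-Hochberg adjustment and a threshold of 0.05: within each day, location alone, and over all 150 samples with 29 states as groups. A standard error was the fold change over the root of F. Fits were tested on simulated counts with 200 genes changed by a log2 of 2. These were drawn independently for each sample from edgeR's estimates of spread, without the shared wounds and animals of the data. In those made from day 5 (n = 6, 14409 genes) edgeR recovered 90.5% with 6.22% false calls and DESeq2 94% with 14.5%, and in those from day 15 (n = 3, 14644 genes) edgeR 64.5% with 7.86% and DESeq2 82.5% with 32.7%. Wounds, 2 per animal on 10 days, entered as samples, so p-values measure the spread between samples, part of which may lie within animals. The labels pair edge and center by wound; over 17916 genes these samples deviated together with a mean r of 0.259, positive in 64 of 72 wounds, and the wound was used as a replicate block in an alternative. No 2 libraries were identical.

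Gene names came from the name column or the protein match. Named genes were the members, the 4 other CC genes called over 14 days with the largest fold in each direction, the 4 with the highest mean CPM and, per member, the 3 with the most similar states, of which 1 is not reported here. The members and lists were chosen with earlier results of these data known. The dendritic and Langerhans list was void, since 71.4% of it was found. Alternatives were DESeq2 1.42.0, library size without TMM, no filter, counts summed per animal, wound or animal as replicate block, animal sets, and samples left out. Python 3.11.15, numpy 2.4.6, pandas 2.3.3 and matplotlib 3.10.9 were used.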

Additional observations from a re-analysis of the deposited data

Results flagged for a closer look

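In states of 6 samples, 126 groups of a gene and a state were searched for 1 sample far from the other 5 by Dixon's ratio, and 6 were found, where chance gives about 1 in 20, or 6.3. CCL4 in the day 6 center was 244 CPM in animal 1327, wound K, against log2(1 + CPM) values of 2.62 to 4.11 in the others and 7.94 in this sample (ratio 0.720). On day 9 the edge of animal 1327, wound H, was highest for CCL4 (34.9 CPM, ratio 0.712) and for CCL5 (136 CPM, ratio 0.713). CCL20 on day 11 was highest in animal 1324, wound C, both in the center (10.3 CPM, ratio 0.626) and at the edge (10.3 CPM, ratio 0.638). In day 0 skin CCL20 was highest in animal 1327, with 0.368 CPM (ratio 0.651).

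The difference of CCL4 between edge and center changed by -2.85 from days 1 and 2 to days 11 and 13, by the test given above. For CCL20 the center was higher in every wound on days 4, 5 and 15 and on day 3, where the 6 wounds include the 2 whose libraries go against their labels, and on 1 day, day 19, the edge was higher in each of the 3 wounds (0.385, 0.567 and 0.662 CPM against 0, 0.167 and 0.244); this difference between days was not tested, and rests on at most 13 counts per library.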

How the results depend on the processing

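Of the results on counts, 92 values under an alternative stayed within 1.5 times the main value and 19 did not. The 25 pairs of gene and day called between edge and center became 40 with DESeq2 (39 higher in the center). With the wound as replicate block they became 39, all higher in the center. Leaving out 1 wound position at a time gave 16 to 21, in both counts. The shares of all genes called in these runs are not given here, so the counts are no result about the members. DESeq2 made more false calls than edgeR on simulated counts, which used edgeR's estimates of spread and held no wound or animal effect. They cannot decide which of the calls in the wounds are right. With the animal as replicate block in the fit of all samples, the counts over 14 days, against day 0 and between stages stayed within 1.5 times. The 21 pairs of gene and step became 10 in animals 1323 to 1325 alone and 9 in animals 1326 to 1328 alone (falls: 8 and 7), fits with fewer samples. In the change of the edge and center difference, the count of 1 became 2 with DESeq2, without TMM, without the filter, without the libraries that stand apart and with the animal as replicate block, 0 in animals 1326 to 1328 alone, and 0 to 3 when 1 animal was left out; the cause was not tested. CCL20 in that comparison, which did not pass, turned from -0.13 to 0.0805 without animal 1327 (range -0.36 to 0.0805 with 1 animal left out) and to 0.31 in animals 1323 to 1325 alone. Depth limits CCL20 most: in 4 late days it fell under the filter, and its folds from day 0 rest on 1 to 7 counts per library.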
